A study of Mus musculus with 6 samples.

Results

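Pericytes were represented here by 8 marker genes, Pdgfrb, Cspg4, Rgs5, Kcnj8, Abcc9, Mcam, Anpep and Higd1b, chosen by name and read in mRNA sequencing of mouse primary myoblast cultures. The deposited table held 54532 genes, of which 14679 had enough counts to be tested, the 8 marker genes among them. The libraries were 3 labelled WT and 3 labelled eIF5A-KO, all from proliferating cultures on day 2. Per the series' design text and the labels, the cells came from hind-limb muscle of 3-week-old mice, were released with dispase and collagenase and grew in DMEM with FBS and FGF. The methods of the study place the floxed eIF5A mice on a C57BL/6j background. The eIF5A-KO mice carried Pax7CreERT2/+ with eIF5Af/f, so that tamoxifen deletes the gene in cells that express Pax7, the satellite cells. WT mice were littermates, whose alleles the sources give in more than 1 way (Pax7CreERT2/+ or Pax7+/+;eIF5Af/f). The deletion is thus directed at satellite cells and not at pericytes, and no cell sorting is described for these cultures. The labels do not say whether the 3 libraries of a genotype came from separate animals, so the p-values measure the spread between libraries, which may be technical.

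Pericytes wrap the endothelial tube of capillaries and share a basement membrane with it. They are recruited by PDGF-B from the endothelium, which acts on the receptor PDGFRβ, and together with vascular smooth muscle cells they form the mural cells of vessels. In skeletal muscle they lie close to satellite cells on the capillary bed. No single gene marks pericytes alone: each of the 8 is also made by some smooth muscle, fibroblast, endothelial or myogenic cells.

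Promoters are shown for the neighbouring genes Kcnj8 and Abcc9, which encode the 2 subunits of 1 channel, and for Cspg4 and Anpep, which had the library patterns closest to that of Pdgfrb. The windows come from RefSeq on GRCm38.p6, run from 250 bases before to 50 bases after the start site, and matched 6 of the 8 genes. Kcnj8 is at chr6:142571565-142571864 (minus strand), Abcc9 at chr6:142702225-142702524 (minus strand), Cspg4 at chr9:56864854-56865153 (plus strand) and Anpep at chr7:79848161-79848460 (minus strand). Capitals mark TGGGAA, the core bound by the Notch factor RBPJ, and CAGCTG, an E-box of the kind bound by myogenic and other basic helix-loop-helix factors.
Kcnj8 promoter: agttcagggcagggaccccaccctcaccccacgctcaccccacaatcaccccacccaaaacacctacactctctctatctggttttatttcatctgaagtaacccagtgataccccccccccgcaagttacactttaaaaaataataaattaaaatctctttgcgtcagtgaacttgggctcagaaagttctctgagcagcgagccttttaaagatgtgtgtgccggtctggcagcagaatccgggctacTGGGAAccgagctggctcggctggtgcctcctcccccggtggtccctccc
Abcc9 promoter: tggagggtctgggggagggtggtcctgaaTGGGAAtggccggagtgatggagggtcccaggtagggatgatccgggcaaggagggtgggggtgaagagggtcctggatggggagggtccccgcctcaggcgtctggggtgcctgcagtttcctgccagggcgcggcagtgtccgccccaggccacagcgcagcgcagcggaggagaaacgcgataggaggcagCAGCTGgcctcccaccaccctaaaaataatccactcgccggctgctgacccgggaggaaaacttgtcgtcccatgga
Cspg4 promoter: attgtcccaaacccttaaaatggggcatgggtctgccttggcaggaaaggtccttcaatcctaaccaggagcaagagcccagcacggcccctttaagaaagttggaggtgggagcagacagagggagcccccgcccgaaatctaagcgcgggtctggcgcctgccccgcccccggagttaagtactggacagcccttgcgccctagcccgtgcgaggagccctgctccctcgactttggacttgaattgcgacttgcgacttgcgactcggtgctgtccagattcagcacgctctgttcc
Anpep promoter: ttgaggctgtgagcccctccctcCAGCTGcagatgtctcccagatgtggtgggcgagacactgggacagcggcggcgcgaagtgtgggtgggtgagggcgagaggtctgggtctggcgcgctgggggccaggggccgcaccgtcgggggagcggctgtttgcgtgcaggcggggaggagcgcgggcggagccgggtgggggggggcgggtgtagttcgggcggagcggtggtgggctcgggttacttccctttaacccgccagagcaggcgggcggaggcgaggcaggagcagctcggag

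Both strands were searched, and CAGCTG reads the same on both. Counted from the start site as 0, TGGGAA began at 0 in Kcnj8 and at -221 in Abcc9, and CAGCTG began at -27 in Abcc9 and at -227 in Anpep. Rgs5 held CAGCTG at 26, and the windows of Mcam and Cspg4 held no match. Of 32851 promoter windows of the same length, 25.6% held TGGGAA and 16.3% held CAGCTG, so the matches are of common letters. TGTTTAC, a forkhead motif found in 3.65% of the windows, and the CArG box of SRF, found in 1.63%, were in none of the 6 windows. The starts used for Anpep, Cspg4, Abcc9 and Mcam lie inside the gene spans given by the deposited table, that of Anpep the furthest. Those of Kcnj8 and Rgs5 lie at the start of their spans.

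Expression of Eif5a, the gene deleted in the mutant mice, overlapped between the genotypes. It was 1603, 986 and 1238 CPM (counts per TMM-adjusted library total) in the WT libraries and 1364, 1459 and 1059 CPM in the eIF5A-KO libraries. The difference was 0.02 on the log2 scale (SE 0.23, adjusted p = 0.993). The directions given here are therefore those of the libraries labelled eIF5A-KO. Library totals were 16281216 to 17734551 counts, and 3 genes in all passed an adjusted p under 0.05.

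Across the 6 libraries, the 8 genes had different levels. Of the 8, 5 were higher in every eIF5A-KO library than in any WT library, against 5.68% of all tested genes. On the FPKM scale (fragments per unit of gene length and of sequencing depth, which allows comparison between genes), Pdgfrb had the highest mean and Higd1b the lowest. The summed FPKM of the 8 genes was 89.7, 140 and 122 in WT 1, 2 and 3 and 163, 159 and 180 in eIF5A-KO 1, 2 and 3, with every eIF5A-KO library above every WT library. That sum is carried mainly by Pdgfrb and Mcam. In bulk RNA, a larger number of cells of a type and more RNA per cell cannot be told apart.

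**Figure D1:**
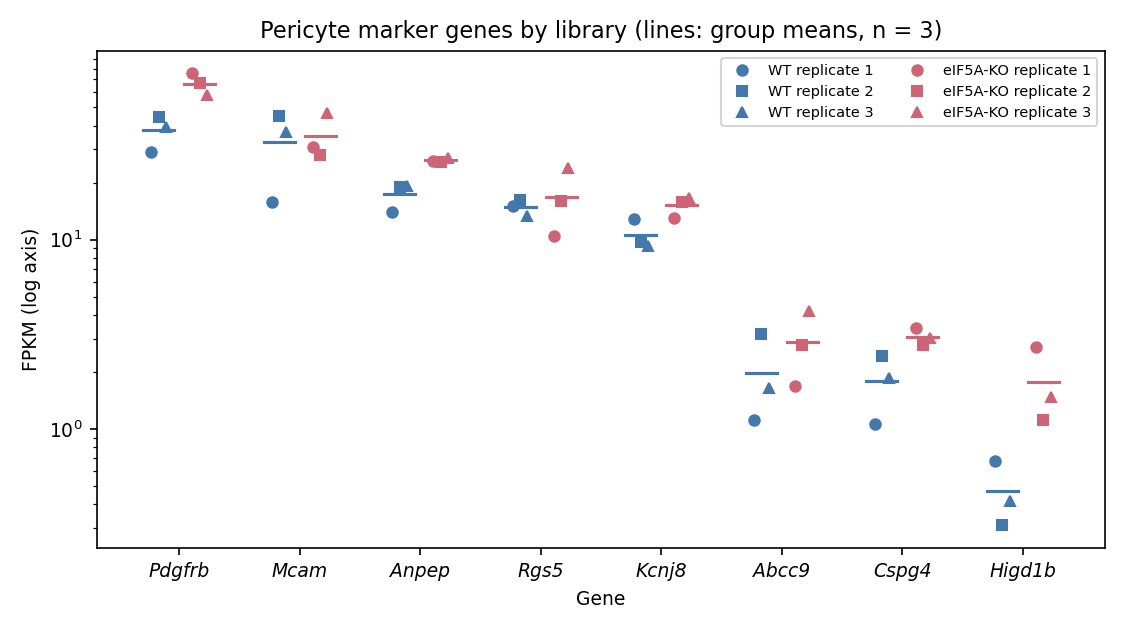
FPKM of each marker gene in each library on a log axis, genes ordered by mean level. Points are libraries (circle, square and triangle for replicates 1 to 3) and lines are group means of 3. The 3 eIF5A-KO points lie above the 3 WT points for Pdgfrb, Anpep, Kcnj8, Cspg4 and Higd1b, whereas Mcam, Rgs5 and Abcc9 overlap.

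None of the 8 genes passed an adjusted p under 0.05 in edgeR's quasi-likelihood test (adjusted p 0.398 to 0.981), as 0.0204% of all tested genes did. Of the 8, 5 were higher in the eIF5A-KO libraries with an unadjusted p under 0.05, against 2.74% of all tested genes. The same 5 had groups that did not overlap in that direction, against 5.68% of all tested genes. All 8 had a log2 fold change above 0, against 48.3%, with a median of 0.56 beside -0.01 over all tested genes. Higd1b alone met the criterion of the study, a fold over 2 with p under 0.05, which 0.45% of tested genes met in that direction. Higd1b reached the minimum for testing only through the eIF5A-KO libraries, and a gene below that minimum in WT enters the test only by being higher in eIF5A-KO. Without it, 4 of the other 7 had an unadjusted p under 0.05 and groups that did not overlap, and the median was 0.54. Leaving out WT 2 raised the number meeting the criterion to 3, with Cspg4 and Abcc9 added, against 0.91% of all tested genes at that setting.

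**Figure D2:**
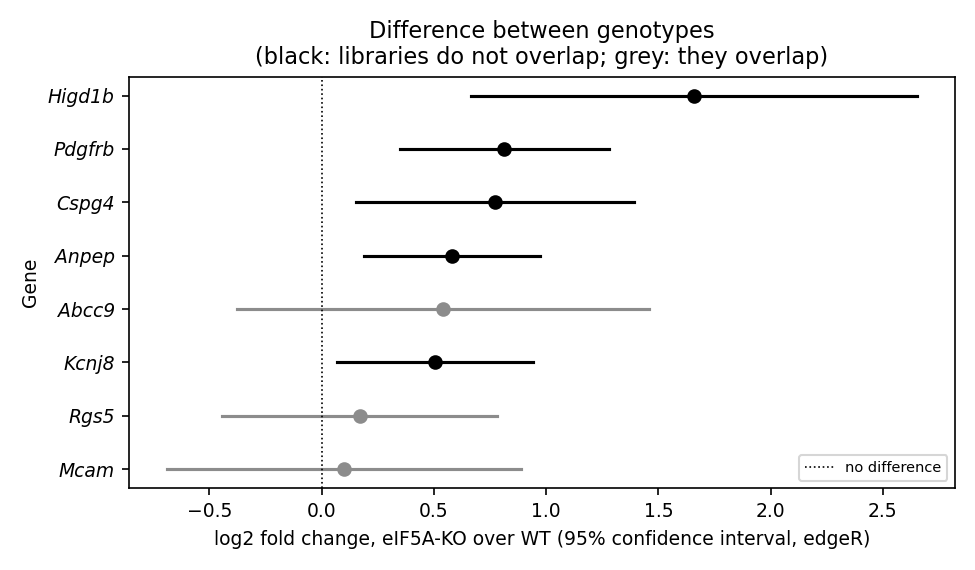
log2 fold change of each marker gene, eIF5A-KO over WT, with its 95% confidence interval from edgeR. Black marks the 5 genes whose libraries do not overlap and grey the 3 whose libraries do. The intervals of Mcam, Rgs5 and Abcc9 include 0.

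Pdgfrb (ENSMUSG00000024620), at chr18:61045150-61085061 on the plus strand of mm10 with up to 24 exons, encodes the receptor tyrosine kinase that receives PDGF-B. Its FPKM was 29.2, 44.6 and 39.5 in the WT libraries and 75.4, 66.7 and 57.8 in the eIF5A-KO libraries. Every eIF5A-KO library was above every WT library, and the lowest eIF5A-KO level was 1.29 times the highest WT level. The means were 37.8 ± 7.88 and 66.6 ± 8.83 FPKM (SD, n = 3 each), and the log2 fold change was 0.81 (SE 0.21, 95% interval 0.35 to 1.28, unadjusted p = 0.00323, adjusted p = 0.398 by edgeR). In 17 alternative settings the unadjusted p stayed under 0.05, while the adjusted p ran from 0.0279, with no filter on low counts, to 0.9998.

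Pdgfra, the closest relative of this receptor, marks fibro-adipogenic progenitors. It had 38.0, 40.1 and 34.7 FPKM in WT and 29.9, 42.9 and 33.0 FPKM in eIF5A-KO, with a log2 fold change of -0.10 (SE 0.19, adjusted p = 0.966). The groups overlapped for Pdgfra. The ratio of Pdgfrb to Pdgfra within each library was 0.766, 1.11 and 1.14 in WT and 2.52, 1.55 and 1.75 in eIF5A-KO. The groups did not overlap, and the two-sided exact permutation test gave p = 0.1, the smallest that 3 against 3 allows (adjusted p = 0.233 over 7 ratios, all chosen after the values were seen). Pdgfb, the ligand, had 10.9, 29.3 and 27.1 FPKM in WT and 33.5, 20.4 and 28.1 FPKM in eIF5A-KO. Its log2 fold change was 0.28 (SE 0.34, adjusted p = 0.945) and turned to -0.04 without WT 1.

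Cspg4 (ENSMUSG00000032911; chr9:56865033-56899870, plus strand, 10 exons) encodes NG2, a membrane proteoglycan that binds collagen VI and PDGF. Its FPKM was 1.06, 2.43 and 1.85 in WT and 3.41, 2.76 and 3.01 in eIF5A-KO. WT 1 was far below the other libraries, and the groups did not overlap. The counts behind these levels ran from 199 to 671 per library. eIF5A-KO exceeded WT by a log2 fold change of 0.77 (SE 0.28, 95% interval 0.15 to 1.39, unadjusted p = 0.0199, adjusted p = 0.577), 0.52 without WT 1, and the unadjusted p was 0.0628 without eIF5A-KO 1.

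Anpep (ENSMUSG00000039062; chr7:79821803-79861059, minus strand, up to 21 exons) encodes aminopeptidase N, or CD13, a surface peptidase. Its FPKM was 14.05, 18.9 and 19.2 in WT and 25.8, 25.7 and 26.9 in eIF5A-KO. The eIF5A-KO libraries were nearly alike, with a coefficient of variation of 2.26% against 16.3% in WT, and all lay above WT. On the log2 scale the difference was 0.58 (SE 0.17, 95% interval 0.19 to 0.97, unadjusted p = 0.00841, adjusted p = 0.495). Of its relatives, Enpep, another mural aminopeptidase, had 1.76, 1.71 and 1.74 FPKM in WT and 2.19, 2.74 and 3.23 FPKM in eIF5A-KO (log2 fold change 0.63, SE 0.21, adjusted p = 0.549), without overlap. Lnpep (-0.35, adjusted p = 0.881) and Erap1 (-0.09, adjusted p = 0.978), other relatives named after their values were seen, had log2 fold changes below 0 and overlapped. Lnpep had 6.06, 11.4 and 6.85 FPKM in WT and 5.64, 6.48 and 7.09 FPKM in eIF5A-KO, with WT 2 above every other library. The uncharacterised gene Gm44974 overlaps Anpep on the same strand, and how reads from the overlap were assigned is not given in the sources used here.

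Higd1b (ENSMUSG00000020928; chr11:102835849-102838040, plus strand, up to 4 exons) encodes a hypoxia-inducible-domain protein of mitochondria that is enriched in pericytes of several organs. It had 9, 5 and 6 counts in WT and 38, 16 and 22 counts in eIF5A-KO, or 0.676, 0.310 and 0.415 FPKM and 2.72, 1.11 and 1.47 FPKM. The groups did not overlap, though the levels rest on few reads. No WT library reached the minimum for testing, so a higher eIF5A-KO level was favoured in advance here and in the ratio to Higd1a below. The log2 fold change was 1.66 (SE 0.44, 95% interval 0.67 to 2.65, unadjusted p = 0.00418, adjusted p = 0.400). Over 16 alternatives the adjusted p ran from 0.0484, with no filter on low counts, to 0.9998. Higd1a, the widely expressed relative, had 42.2, 17.2 and 19.9 FPKM in WT and 24.1, 22.9 and 16.95 FPKM in eIF5A-KO (log2 fold change -0.32, SE 0.33, adjusted p = 0.927). The groups overlapped for Higd1a, and WT 1 was far above every other library. The ratio of Higd1b to Higd1a was 0.0160, 0.0180 and 0.0209 in WT and 0.113, 0.0487 and 0.0865 in eIF5A-KO (two-sided exact permutation p = 0.1, adjusted p = 0.233 over 7 ratios). For the ratios of Pdgfrb to Rgs5, Pdgfrb to Pdgfb and Rgs5 to Rgs16 the exact permutation test gave p = 0.3, 0.3 and 0.5 (adjusted p = 0.42, 0.42 and 0.583).

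**Figure D3:**
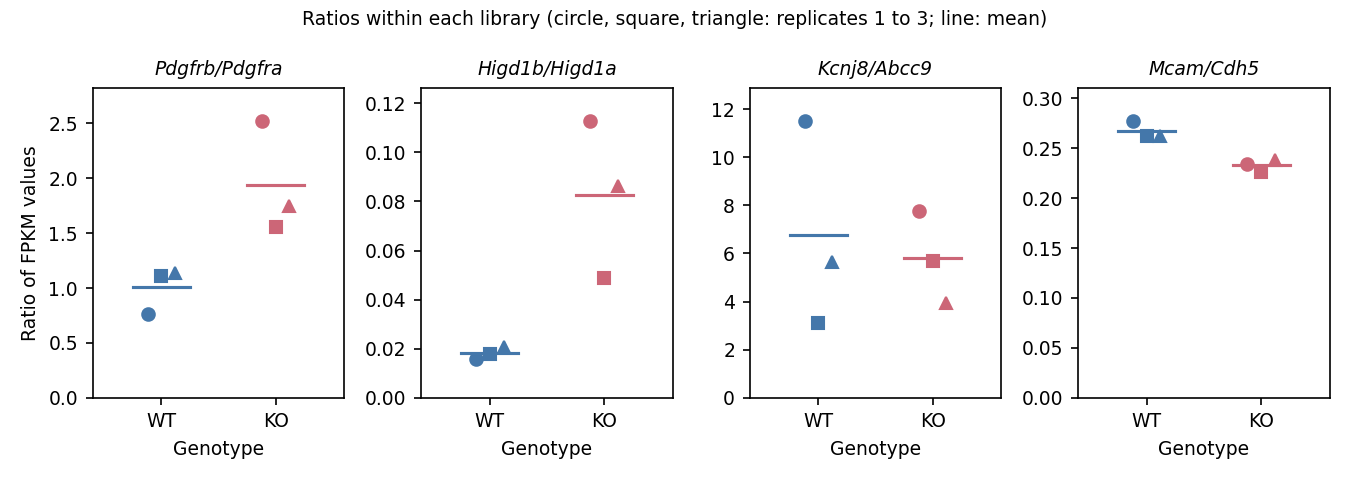
Ratio of FPKM values of 2 genes within each library for 4 pairs, with axes from 0. Points are libraries (circle, square and triangle for replicates 1 to 3) and lines are means of 3. Groups are apart for Pdgfrb/Pdgfra, Higd1b/Higd1a and Mcam/Cdh5, and overlap for Kcnj8/Abcc9. Higd1b reached the minimum for testing only through the eIF5A-KO libraries.

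Kcnj8 and Abcc9 encode Kir6.1 and SUR2, the pore and the regulatory subunit of the potassium channel that couples the energy state of mural cells to their membrane potential. They lie on the minus strand of chromosome 6, Kcnj8 (ENSMUSG00000030247, up to 3 exons) at chr6:142564837-142571614 and Abcc9 (ENSMUSG00000030249, up to 41 exons) at chr6:142587862-142702315, with 16247 bases and no whole gene between them. Kcnj8 had 12.9, 9.74 and 9.27 FPKM in WT and 13.1, 15.8 and 16.5 FPKM in eIF5A-KO. The groups were apart only narrowly, the lowest eIF5A-KO library (replicate 1) being 1.01 times the highest WT library (replicate 1) on the CPM scale. The log2 fold change was 0.50 (SE 0.19, 95% interval 0.07 to 0.94, unadjusted p = 0.0283, adjusted p = 0.644). The unadjusted p passed 0.05 in 12 of 17 alternatives, being lost without WT 2, WT 3, eIF5A-KO 2 or eIF5A-KO 3 and with a replicate block, and reached 0.115 without WT 3.

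Abcc9 varied more between libraries of a genotype than its channel partner. It had 1.117, 3.15 and 1.64 FPKM in WT and 1.68, 2.78 and 4.21 FPKM in eIF5A-KO, so WT 2 stood above 2 of the 3 eIF5A-KO libraries. The log2 fold change was 0.54 (SE 0.41, 95% interval -0.38 to 1.46, adjusted p = 0.889), 1.05 without WT 2 (unadjusted p = 0.0149) and 0.17 without eIF5A-KO 3. The ratio of Kcnj8 to Abcc9 was 11.5, 3.09 and 5.64 in WT and 7.78, 5.69 and 3.93 in eIF5A-KO (two-sided exact permutation p = 0.9, adjusted p = 0.9). The difference between the patterns of both genes, the root mean square of their centred log2 CPM over 6 libraries, was 0.615, within a range of 0.185 (Pdgfrb and Anpep) to 1.09 (Abcc9 and Higd1b) over all pairs of the 8 genes. The antisense gene 5330439B14Rik overlaps Abcc9, and whether counting used strand is not given in the sources used here.

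Rgs5 (ENSMUSG00000026678; chr1:169655501-169695813, plus strand, 5 exons) encodes a regulator that shortens G-protein signals and is a standard pericyte marker. Its FPKM was 15.0, 16.1 and 13.4 in WT and 10.4, 16.01 and 23.9 in eIF5A-KO. The eIF5A-KO libraries held both the lowest and the highest value, with a coefficient of variation of 40.2% against 9.47% in WT. This gave a log2 fold change of 0.17 (SE 0.27, 95% interval -0.45 to 0.78, adjusted p = 0.959) and -0.17 without eIF5A-KO 3. Its relative Rgs16 had 70.8, 54.9 and 46.7 FPKM in WT and 67.7, 59.6 and 84.2 FPKM in eIF5A-KO (log2 fold change 0.29, SE 0.21, adjusted p = 0.888, 0.14 without eIF5A-KO 3 and 0.48 without WT 1).

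Mcam (ENSMUSG00000032135; chr9:44134469-44142727, plus strand, up to 16 exons) encodes the adhesion molecule CD146, which endothelial cells also make. Its FPKM was 15.8, 45.0 and 36.9 in WT and 31.0, 28.0 and 46.3 in eIF5A-KO. WT 1 was the lowest and the groups overlapped. The log2 fold change was 0.10 (SE 0.35, 95% interval -0.69 to 0.89, adjusted p = 0.981), -0.22 without WT 1 and -0.15 without eIF5A-KO 3. The antisense gene Gm10687 overlaps its start.

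Mcam kept a nearly constant ratio to Cdh5, the VE-cadherin of endothelial junctions, of 0.277, 0.262 and 0.262 in WT and 0.234, 0.226 and 0.239 in eIF5A-KO (two-sided exact permutation p = 0.1, adjusted p = 0.233). All 3 eIF5A-KO ratios were below the WT ratios. Cdh5 itself had 57.1, 172 and 141 FPKM in WT and 132, 124 and 194 FPKM in eIF5A-KO. Among the marker lists, the mean pattern of the endothelial genes was the nearest to Mcam, at a root mean square distance of 0.211 against 0.504 for the other mural markers. The endothelial list was also the nearest to Cspg4 (0.258 against 0.330) and Abcc9 (0.405 against 0.569). The other mural markers were nearer than the endothelial list to Pdgfrb (0.192 against 0.336), Anpep (0.0973 against 0.235), Higd1b (0.699 against 0.880), Kcnj8 (0.260 against 0.492) and Rgs5 (0.465 against 0.476). Of all the lists they were the nearest to Pdgfrb, Anpep and Higd1b only. Kcnj8 was nearest to the smooth muscle list (0.220). Rgs5 was nearest to the paralogs of the 8 genes (0.340). The PDGF, smooth muscle, Schwann and fibro-adipogenic lists (0.347 to 0.451) were also nearer to Rgs5 than the other mural markers. These comparisons were chosen after the values were seen.

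**Figure D4:**
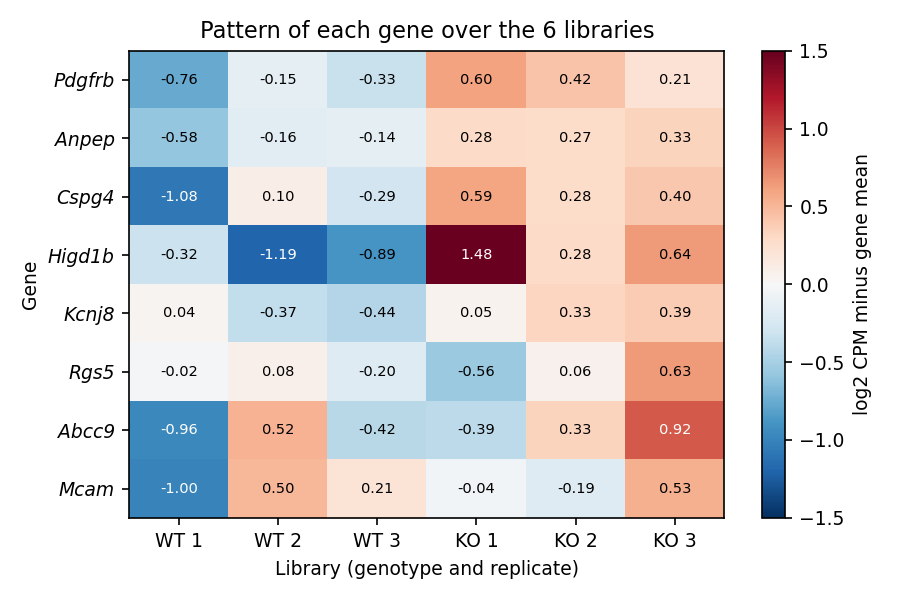
log2 CPM of each marker gene minus its own mean over the 6 libraries, as a number and a colour. Rows are genes and columns are libraries. WT 1 is the lowest library for 5 genes, and eIF5A-KO 3 the highest for 5.

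The 8 genes did not vary as 1 block. WT 1 was the lowest library for Pdgfrb, Cspg4, Abcc9, Mcam and Anpep. eIF5A-KO 3 was the highest for Rgs5, Kcnj8, Abcc9, Mcam and Anpep, and eIF5A-KO 1 for Pdgfrb, Cspg4 and Higd1b. WT 1 also had the highest mitochondrial share of counts, 5.75% against 2.11% to 3.50%, and the highest share in its 10 leading genes, 8.54% against 5.01% to 6.65%. The part of these in the results was not tested beyond leaving the library out. The same 5 genes, Pdgfrb, Cspg4, Anpep, Kcnj8 and Higd1b, then had an unadjusted p under 0.05, against 4.72% of all tested genes higher at that setting. Of the 5, Higd1b reached the minimum for testing only through the eIF5A-KO libraries. Without WT 1 the fold change of Pdgfrb was 0.67 on the log2 scale.

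The order of FPKM levels was similar in most libraries. Pdgfrb was first in 5 of the 6 libraries, WT 2 excepted, where Mcam was first. Higd1b was last in 5, eIF5A-KO 1 excepted, where Abcc9 was last. In WT the mean levels of Pdgfrb and Mcam differed by less than their spread, as did those of Anpep and Rgs5 and those of Abcc9 and Cspg4. In eIF5A-KO the same held for Mcam and Anpep, for Rgs5 and Kcnj8, for Cspg4 and Abcc9 and for Abcc9 and Higd1b.

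For each gene, the 3 genes of at least 5 CPM with the smallest distance of centred log2 CPM over the 6 libraries were found, out of at least 11037 candidates. For Pdgfrb these were Sod3 (0.080), Serping1 (0.091) and Col6a2 (0.091), for Cspg4 Col6a3 (0.092), Fndc10 and Atp1b2, and for Anpep Nckipsd (0.062) and Hic1. For Mcam these were Arap3 (0.046), Foxo1 (0.052) and Mkl2, and for Rgs5 Trim34a (0.081), Klhl4 and Tmem140. Kcnj8 was nearest to Mr1 (0.096), Kcne4 and Tmem184c, Abcc9 to Sorbs2 (0.21), Pdzd2 and Nhsl2, and Higd1b to Grem1 (0.27), Hist1h1c and Angpt4. Higd1b and Abcc9 thus had the most distant neighbours, and also the largest spread of their own over the libraries (root mean square 0.913 and 0.643). The distances are not scaled to that spread. The distances are a description over 6 libraries that share their preparation and depth.

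Of 16 further mural markers, 14 were higher and 2 lower, 8 higher with an unadjusted p under 0.05 and none with an adjusted p under 0.05, and the median log2 fold change was 0.59. Of all tested genes, 48.3% were higher and 2.74% were higher with an unadjusted p under 0.05. Vtn, the matrix protein vitronectin, had 2.66, 3.67 and 3.35 FPKM in WT and 7.29, 6.99 and 6.03 FPKM in eIF5A-KO (log2 fold change 1.05, SE 0.21, adjusted p = 0.321). Aoc3, an amine oxidase, had a log2 fold change of 0.92 (SE 0.23, adjusted p = 0.398), and both genes had groups that did not overlap. Vtn passed an adjusted p under 0.05 with DESeq2 (0.00804) and with no filter on low counts (0.0118), its adjusted p reaching 0.816 in the other alternatives, and Aoc3 passed with no filter (0.0131) and reached 0.838. Ndufa4l2, a mitochondrial protein enriched in pericytes, had 0.64 (SE 0.23, adjusted p = 0.571) with overlap. Des, which myogenic cells also express, had -0.02 (SE 0.35), and the Notch receptor gene Notch3 had 0.36 (SE 0.48), 1.03 without WT 2 and -0.05 without WT 1.

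Of the contractile genes of smooth muscle, 10 of 12 could be tested, 8 higher and 2 lower, 3 and 1 with an unadjusted p under 0.05. Their median was 0.37 (0.22 without WT 1 and 0.53 without WT 2). Of all tested genes, 48.3% were higher, and 2.74% were higher and 4.02% lower with an unadjusted p under 0.05. Myh11, smooth muscle myosin, rose from 1.36, 1.43 and 1.37 FPKM in WT to 3.81, 3.70 and 4.49 FPKM in eIF5A-KO (log2 fold change 1.51, SE 0.17, adjusted p = 0.0486 by edgeR), the only gene of all lists with an adjusted p under 0.05. That call was lost without WT 2, WT 3 or any 1 of the 3 eIF5A-KO libraries, at log2 fold changes between 1.43 and 1.57. It was also lost in 6 alternatives with all libraries, at adjusted p = 0.051 with DESeq2 size factors in edgeR, 0.115 with library size alone, 0.0722 with at least 10 counts in every library, 0.0977 with limma-voom, and 0.113 and 0.0896 with limma on log2 FPKM with the larger and the smaller pseudocount. It held with upper-quartile scaling, a smaller prior count, no filter, DESeq2 and a replicate block, and the lowest of these adjusted p was 1.96e-09, with DESeq2. Actg2, 1 of the 3 higher genes, had 1.53 (SE 0.40, adjusted p = 0.398), but like Higd1b it reached the minimum for testing through the eIF5A-KO libraries, with WT 1 as the only WT library above it. Acta2 had 0.37 (SE 0.26, adjusted p = 0.881, 0.17 without eIF5A-KO 1 and 0.58 without WT 2) and Myl9 -0.72 (SE 0.20, adjusted p = 0.431, lower in all eIF5A-KO libraries). The contractile genes Cnn1 and Pln had at most 5 counts in any library, and Tagln, named after its values were seen, had 9 to 14.

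Of 19 genes of PDGF, angiopoietin, sphingosine phosphate, TGF-β and Notch signalling, 13 were higher and 6 lower, 3 and 1 with an unadjusted p under 0.05, none with an adjusted p under 0.05. The median was 0.21, or 0.030 without eIF5A-KO 3 and 0.33 without WT 2. The matching shares of all tested genes were 48.3% higher, and 2.74% higher and 4.02% lower with an unadjusted p under 0.05. Eng, a TGF-β co-receptor of endothelium, had 0.84 (SE 0.25, adjusted p = 0.491), and Tgfb1 had 0.62 (SE 0.21, adjusted p = 0.557). Angpt2 had 0.11 (SE 0.18, adjusted p = 0.961) and was 0.028 without eIF5A-KO 3 and 0.20 without WT 3. Among 15 tested paralogs of the 8 genes, 9 were higher (48.3% of all tested genes) and 6 lower, 2 higher with an unadjusted p under 0.05 (2.74%). Their median was 0.20 (0.12 without WT 3). Alcam, related to Mcam, had 1.01 (SE 0.30, adjusted p = 0.484) and Higd2a had 0.27 (SE 0.22, adjusted p = 0.910, 0.14 without WT 2 and 0.48 without WT 1).

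**Figure D5:**
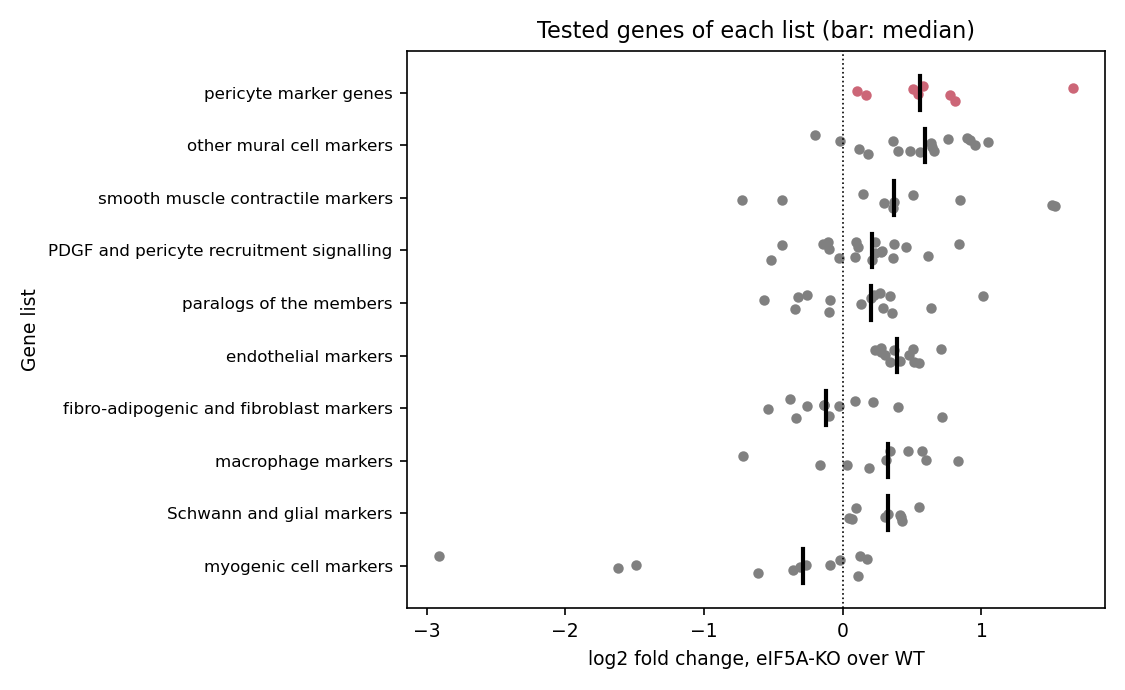
log2 fold change, eIF5A-KO over WT, of every tested gene of each list. Points are genes and the bar is the list's median. The medians run from -0.28 for myogenic markers to 0.59 for other mural markers, with 0.56 for the 8 pericyte marker genes.

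Markers of other cell types were present at levels that moved between libraries. All 12 endothelial markers were higher in eIF5A-KO, against 48.3% of all tested genes, and 1 had an unadjusted p under 0.05, against 2.74% higher. Groups did not overlap for 1 of the 12, against 5.68% of all tested genes. The summed FPKM of the 12 was 381 to 782 in WT and 680 to 943 in eIF5A-KO. Their median was 0.39, or 0.18 without WT 1 and 0.60 without WT 2. Cldn5, a tight junction protein, had 0.51 (SE 0.34, 0.20 without WT 1), Emcn 0.51 (SE 0.19, adjusted p = 0.611) and Vwf 0.71 (SE 0.38, 0.36 without eIF5A-KO 3 and 1.07 without WT 2). All 9 tested Schwann and glial markers were higher, 2 with an unadjusted p under 0.05, with a median of 0.32 (0.13 without WT 1) and sums of 63.1 to 97.1 and 104 to 117 FPKM, among them Ngfr (0.42) and Sox10 (0.42, or 0.13 without WT 1 and 0.64 without WT 2). The same shares of all tested genes, 48.3% and 2.74%, stand beside the Schwann counts, and 3 Schwann markers had groups that did not overlap. No endothelial or Schwann marker passed an adjusted p under 0.05. The part of endothelial and glial cells in the levels of the 8 genes was not tested.

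Fibro-adipogenic and fibroblast markers, 4 higher and 8 lower of 12, had a median of -0.12 that turned to 0.14 without WT 1 and 0.01 without WT 2, and summed to 844 to 1168 FPKM in WT and 889 to 1036 in eIF5A-KO. Ly6a had -0.14, or -0.27 without WT 2 and -0.056 without WT 3. Dcn had -0.26, which turned to 0.20 without WT 1, while Dpp4 had -0.54 (SE 0.30, -0.26 without WT 1) and Col1a1 had 0.72 (SE 0.23, adjusted p = 0.504). Macrophage markers, 8 higher and 2 lower of 10, had a median of 0.33, -0.06 without eIF5A-KO 1 and 0.84 without WT 2, with sums of 41.9 to 97.2 and 41.0 to 124 FPKM. Cd68 had 0.83 (SE 0.33, adjusted p = 0.675), Lyz2 0.32 and Csf1r 0.34. Without eIF5A-KO 1 these were 0.51, 0.0078 and 0.10, and the highest values were 1.14 for Cd68 and 0.97 for Lyz2, both without WT 2, and 0.57 for Csf1r without eIF5A-KO 3. The fibroblast and macrophage sums overlapped between the genotypes. Of all tested genes, 48.3% were higher.

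Of 12 myogenic markers, 3 were higher and 9 lower, 3 of these with an unadjusted p under 0.05, which 4.02% of all tested genes had in that direction, and the median was -0.28, turning to 0.10 without WT 2. Myog, a differentiation factor, had 9.49, 50.5 and 21.4 FPKM in WT and 5.92, 3.39 and 1.40 FPKM in eIF5A-KO (log2 fold change -2.91, SE 0.63, adjusted p = 0.362). It passed an adjusted p under 0.05 with a replicate block (0.0331), without WT 1 (0.0182) and with no filter on low counts (7.32e-27), and its adjusted p reached 0.735 in the other alternatives. Chrna1, an acetylcholine receptor subunit, had -1.62 (SE 0.40, adjusted p = 0.396). It passed with DESeq2 (0.00636), without WT 1 (0.0366) and with no filter (6.67e-10), its adjusted p reaching 0.843 otherwise. Myod1 had -0.61 (SE 0.30, -0.36 without WT 2) and Sdc4 0.11 (SE 0.26). The summed myogenic FPKM was 469 to 786 in WT and 339 to 642 in eIF5A-KO, with overlap. The part of a changed proportion of myogenic cells in the levels of the pericyte genes was not tested.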

How the data were processed

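Total RNA of 6 primary myoblast samples was sequenced by the authors after TRIzol extraction and NEBNext Ultra library preparation, and reads were aligned with HISAT to mm10, per the submitters' processing notes and the methods. The deposited table holds raw counts per gene and FPKM values that the authors computed from them. The FPKM denominators equalled each library's DESeq2 size factor times the geometric mean of the library totals. The deposited gene length was used only to check FPKM. The count and FPKM columns used were those of the 6 libraries.

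Counts were tested with edgeR 4.0.16 (filterByExpr, TMM factors, prior count 2, quasi-likelihood F test, two-sided, Benjamini-Hochberg adjustment over 14679 genes) in R 4.3.3. limma 3.58.1 and DESeq2 1.42.0 were alternatives. The procedure was tested on simulated counts first. Ratios were tested by exact permutation. The biological coefficient of variation was 0.239. Gene spans were matched to the GENCODE annotation of mm10, and a blastn 2.17.0 search found no copy of a marker gene of at least 200 bases at 90% identity.

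The named genes were the 8 members, Eif5a, the 2 most abundant and the 2 lowest-p genes of each list, Notch3, Acta2, Myh11, Pdgfb and Pdgfra, and the 3 nearest genes per member, with some of these genes not reported here. Ratios, Higd1a and the counts of Cnn1, Pln and Tagln were added after the values were seen. The members and lists were chosen with earlier results of these data known. Alternatives covered scaling, filters, tools, pseudocounts, a replicate block and leaving out each library.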

Additional observations from a re-analysis of the deposited data

How the results depend on the processing

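All 8 marker genes kept a log2 fold change above 0 in every alternative run with all 6 libraries, except that Higd1b could not be fitted with at least 10 counts in every library. With no filter on low counts, 2 marker genes passed an adjusted p under 0.05, Pdgfrb at 0.83 and Higd1b at 1.67 on the log2 scale, while genes called overall went from 3 of 14679 to 249 of 26956 (0.924%), and the cause was not tested. Eng (0.0261), Cd68 (0.0252), Actg2 (0.0442) and Alcam (0.00731) also passed an adjusted p under 0.05 at that setting and at no other, each reaching 0.9998 elsewhere. The number meeting a fold over 2 with p under 0.05 was 1, and became 0 with at least 10 counts in every library, which removes Higd1b (0.245% of all tested genes), and 0 on log2(FPKM + 1) (0.0817%), where the fold of low genes is understated. A smaller prior count, added after seeing the data, left it at 1. Genes called overall numbered 84 with DESeq2 and 0 with limma-voom.

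Leaving out each library moved Rgs5 from -0.17 to 0.43, Mcam from -0.22 to 0.41, and the number meeting the fold criterion from 1 to 3. Ranges of other log2 fold changes were -0.13 to 0.23 for Eif5a, -0.36 to 0.28 for Des, -0.057 to 0.60 for Cdh5, -0.50 to 0.20 for Dcn, -0.10 to 0.35 for Sdc4, -0.049 to 1.03 for Notch3, -0.040 to 0.52 for Pdgfb and -0.26 to 0.015 for Pdgfra. Medians ran from -0.20 to 0.14 for fibro-adipogenic, -0.065 to 0.84 for macrophage and -0.56 to 0.10 for myogenic markers. The number of marker genes without overlap was 5 to 6, while the share of all genes ran from 7.71% to 14.1%.

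Same-numbered libraries did not deviate together (correlations of 0.0840, -0.160 and 0.105), so the numbers were not taken to pair the samples. With a replicate block, 4 marker genes instead of 5 had an unadjusted p under 0.05, Kcnj8 being the one lost, against 2.47% of all tested genes higher, and 24 genes instead of 3 were called overall. Depth limits Higd1b, which had 5 to 38 counts per library.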
